A study of Homo sapiens with 6 samples.

Results

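The HMGN proteins are the 5 members of a small family of vertebrate chromatin proteins, encoded by HMGN1, HMGN2, HMGN3, HMGN4 and HMGN5. They were taken as every row of the array table whose annotation gave 1 of these symbols and no other, which made 8 rows of 33297, of which 21214 carried at least 1 gene symbol and were tested. HMGN1 was read by 2 rows, HMGN2 by 3 rows and each of the other genes by 1 row, and no row with several symbols held a member. The family was chosen with its levels in these same arrays in view, so its differences between groups are given as a description and support no claim of their own.

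HMGN proteins bind inside the nucleosome, to the core particle itself rather than to a particular DNA sequence, through a short conserved positively charged domain. They compete with the linker histone H1 for nucleosomes and are found at open chromatin such as promoters and enhancers. HMGN1 and HMGN2 are the abundant, widely expressed members. HMGN3 was first isolated as a partner of the thyroid hormone receptor and is made in a long and a short splice form. HMGN4 arose as an intronless copy of HMGN2. HMGN5 carries a long acidic tail, binds linker histones and the nuclear protein LAP2-alpha, and has been studied as a growth-associated gene in several cancers.

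The arrays came from MDA-MB-231, a human breast cancer cell line that lacks hormone receptors and has mesenchymal features. The groups were cells with TIP-1 shRNA 162, cells with TIP-1 shRNA 159, and cells with a control shRNA, each with 2 independent clones on 1 array per clone. TIP-1 is the product of TAX1BP3. All cells were grown in RPMI medium with serum, trypsinised and reseeded, and RNA was taken after overnight culture. Since every culture is a clone that keeps its own history, an effect of a hairpin and a difference between clones or rounds of cloning cannot be told apart. The p-values rest only on how far clones with the same hairpin differ, in the row tested and, through limma, over all tested rows. In RNA from a whole culture, more cells with a transcript and more transcript per cell cannot be told apart either.

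Median log2 signals of the arrays ran from 7.37 to 7.44. The row of the targeted gene, TAX1BP3, stood at 9.93 ± 0.11 with shRNA 162, 10.40 ± 0.0012 with shRNA 159 and 11.61 ± 0.07 in control clones (log2 signal, mean ± SD, n = 2 each). That row is also annotated to a readthrough transcript. Of 6 genes that mark this mesenchymal line, such as VIM, CD44 and AXL, 5 lay above the upper quartile of every array. All 4 leukocyte and all 3 melanocyte markers with a row of their own lay below every array's median. Of 5 fibroblast and endothelial markers, 3 lay below every array's median by their mean over the arrays, while COL1A1 and COL3A1 lay above it.

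HMGN5 has the largest difference in the family, and it lies on chromosome X at chrX:81113699-81201913 on the minus strand (RefSeq, GRCh38.p14). Its start is 188 bases from the start of SH3BGRL, a gene for a small thioredoxin-like protein that is read in the opposite direction. The interval between these starts is shown because both genes begin at its ends and HMGN5 alone of this pair passed the test between groups. It is chrX:81201914-81202101, written 5′ to 3′ on the strand of HMGN5, with CpG dinucleotides in capitals.
HMGN5 to SH3BGRL interval: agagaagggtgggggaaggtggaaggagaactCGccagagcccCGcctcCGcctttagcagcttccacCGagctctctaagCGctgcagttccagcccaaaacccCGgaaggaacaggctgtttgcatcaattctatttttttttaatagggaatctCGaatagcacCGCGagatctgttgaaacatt

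The interval holds 9 CpG dinucleotides, and 51.6% of its bases are G or C. In the 250 bases before each gene's start, the family ran in the order HMGN1 with 28 CpG dinucleotides, HMGN2 with 25, HMGN3 with 18, HMGN4 with 14 and HMGN5 with 10, against a median of 11 over 27305 RefSeq promoters of that length. For HMGN5 this longer window also covers the first bases of SH3BGRL. The letters CCAAT, or ATTGG on the other strand, occurred before HMGN1, HMGN2 and HMGN3 and in 33.0% of all promoters. GGGCGG or CCGCCC occurred before HMGN1, HMGN2 and HMGN4 and in 42.3% of all promoters. TATAAA or TTTATA occurred before none of the 5 genes and in 11.1% of all promoters. The window before HMGN5 held none of these letters. A match here is a description of the letters and not a shown binding site.

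HMGN5 signal was 8.17 and 8.27 in the shRNA 162 clones, 6.54 and 6.62 in the shRNA 159 clones, and 6.64 and 6.54 in the control clones (log2). Both shRNA 162 clones stood well above the other 4 arrays, whereas the shRNA 159 and control clones overlapped. HMGN5 rose with shRNA 162 by 1.63 on the log2 scale relative to control (SE 0.08), a 3.09-fold higher signal. The difference for shRNA 159 minus control was -0.01 (SE 0.08). With shRNA 159 the HMGN5 signal was 32.1% of that with shRNA 162, a log2 difference of -1.64 (SE 0.08). In the control and shRNA 159 clones the row lay above the lower quartile and below the median of its array. Detection calls were not used here, so these low levels were not shown to exceed background and the fold is one of array signal.

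By size, this change was number 19 of 21214 rows for shRNA 162 minus control, so 0.0896% of the rows changed at least as much. Clones within a group differed with an SD of 0.0671 for HMGN5 (pooled over the groups), against a median of 0.0863 over all tested rows.

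**Figure D1:**
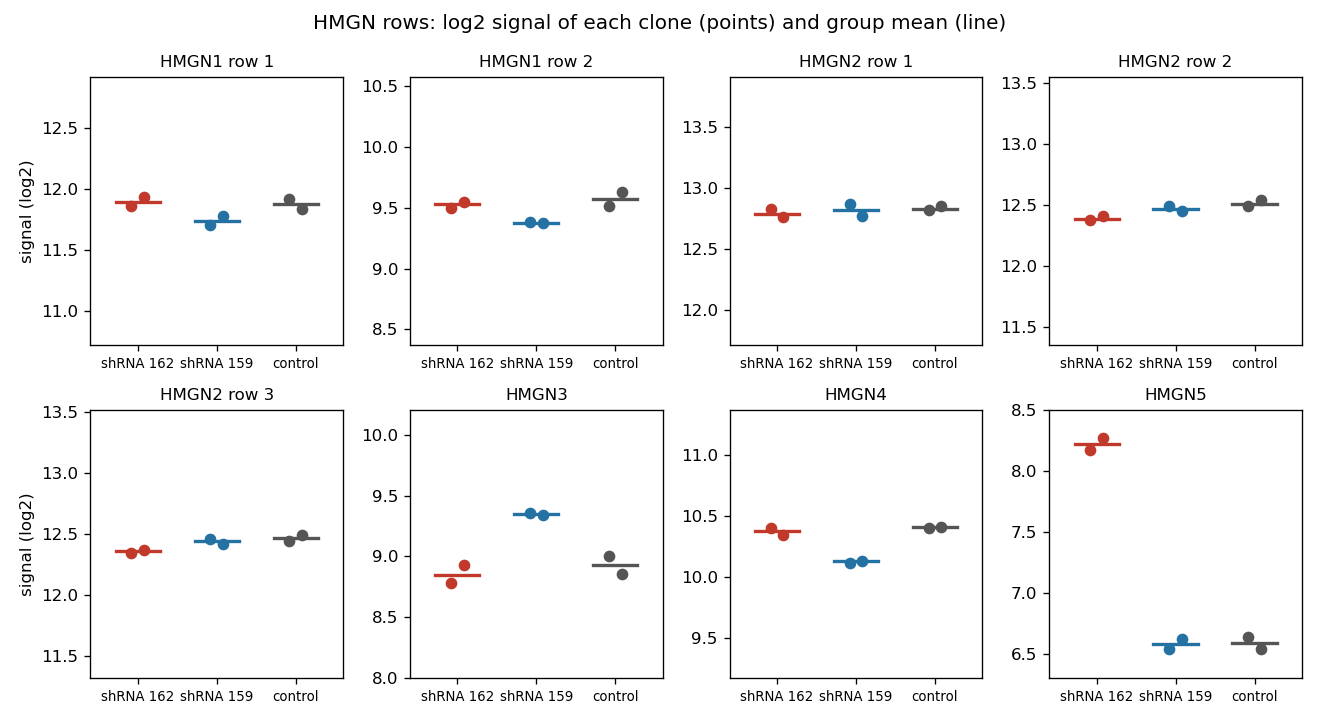
Log2 signal (vertical axis, the same span of 2.2 in every panel) of the 8 HMGN rows in shRNA 162, shRNA 159 and control clones. Points are clones and lines are group means. HMGN5 stands at 8.17 and 8.27 with shRNA 162 and between 6.54 and 6.64 elsewhere, and HMGN3 is highest with shRNA 159.

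HMGN3, the member linked to thyroid hormone receptors and to pancreatic islet function in mice, was higher with the other hairpin. Its signal was 9.36 and 9.34 in the shRNA 159 clones, 8.78 and 8.93 in the shRNA 162 clones, and 9.0 and 8.86 in the control clones (log2). Both shRNA 159 clones lay above the other 4 arrays, and the shRNA 162 and control clones overlapped. HMGN3 rose by 0.42 with shRNA 159 relative to control (SE 0.09, 1.34-fold) and was 0.50 higher with shRNA 159 than with shRNA 162 (SE 0.09, 1.41-fold). The difference for shRNA 162 minus control was -0.08 (SE 0.09). The call against control was narrow. It was lost in 10 of 12 other ways of fitting the same data, including without any 1 of the 6 arrays, with a replicate block and after quantile normalization, although the difference itself stayed between 0.35 and 0.49. The call between the hairpins was lost in 2 of 12. These were the fit with all 33297 rows tested, those without a gene symbol included (0.50), and the fit without shRNA 162 replicate 1 (0.42). The HMGN3 row is annotated to transcripts of several splice forms, which it cannot separate.

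HMGN4 and HMGN1 pointed the other way with shRNA 159, by less. HMGN4 signal was 10.12 and 10.13 in the shRNA 159 clones, 10.40 and 10.35 in the shRNA 162 clones, and 10.40 and 10.41 in the control clones (log2). The shRNA 159 clones were the lowest of the 6 arrays. The difference for shRNA 159 minus control was -0.28 (SE 0.07), or 82.3% of the control signal, and it did not pass. The difference for shRNA 159 minus shRNA 162 was -0.25 (SE 0.07), and it did not pass either. Each of these differences did pass in 2 of 12 other fits, among the brighter rows alone and with a variance trend. The spread of HMGN4 between clones was small (pooled SD 0.0234), lower than in all but 2.84% of the rows. Its SE of 0.07 also draws on the spread of all rows and is larger than the HMGN4 clones alone would give.

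The brighter HMGN1 row read 11.71 and 11.78 with shRNA 159, 11.86 and 11.94 with shRNA 162, and 11.92 and 11.84 in control clones (log2). The dimmer HMGN1 row read 9.38 and 9.37 with shRNA 159, 9.5 and 9.55 with shRNA 162, and 9.51 and 9.63 in control clones. In both rows the shRNA 159 clones lay below the other 4 arrays. The differences for shRNA 159 minus control were -0.14 and -0.20 (SE 0.08 each), and neither passed, here or in any of the 12 other fits. For shRNA 162 minus control they were 0.02 and -0.05 (SE 0.08 each). The 9 accessions of the dimmer row are all among the 11 of the brighter row, so these rows are not independent readings.

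HMGN2, the family member most closely related to HMGN4, had the narrowest spans between its highest and lowest group means (0.0389, 0.116 and 0.108 in its 3 rows on the log2 scale), although single differences of other members were as small. Its brightest row read 12.83 and 12.76 with shRNA 162, 12.87 and 12.77 with shRNA 159, and 12.82 and 12.85 in control clones (log2), and all groups overlapped. The second row read 12.38 and 12.41 with shRNA 162, 12.49 and 12.45 with shRNA 159, and 12.49 and 12.54 in control clones. The third row followed the second at a distance of 0.03 to 0.04 on every array, and both list the same 14 accessions, so they amount to 1 reading. The 3 HMGN2 rows differed from control by -0.04, -0.12 and -0.11 with shRNA 162 and by -0.01, -0.04 and -0.03 with shRNA 159, and none passed. HMGN1 and HMGN2 have many processed copies in the genome, and how far the probes of these rows read such copies was not tested.

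**Figure D2:**
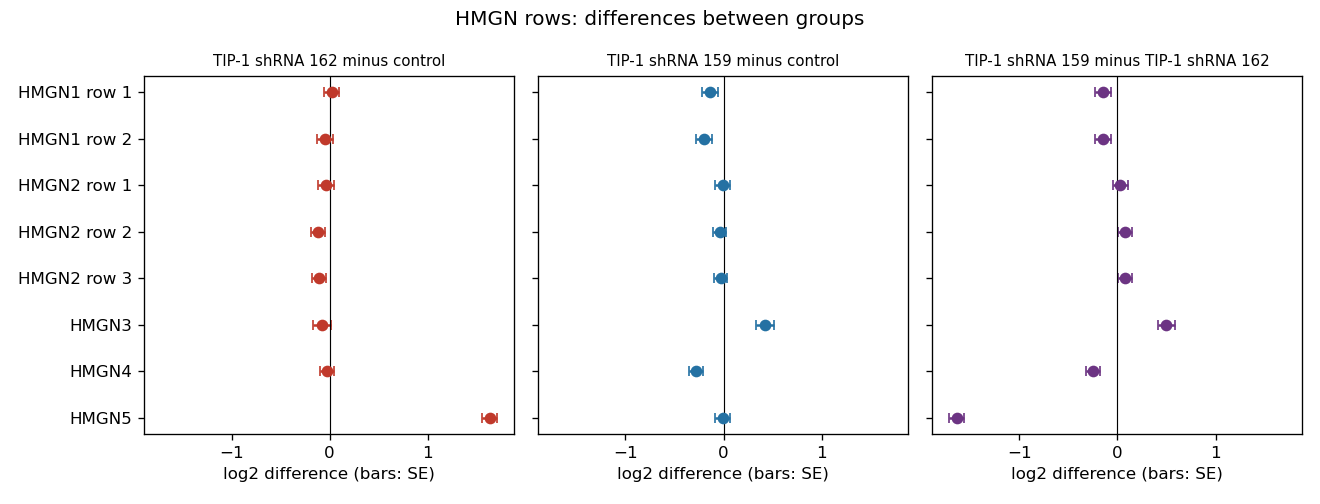
Log2 differences (horizontal axis, bars are SE) of the 8 HMGN rows for shRNA 162 minus control, shRNA 159 minus control and shRNA 159 minus shRNA 162. HMGN5 lies at 1.63, -0.01 and -1.64, HMGN3 at -0.08, 0.42 and 0.50, and the HMGN2 rows lie within 0.12 of 0 throughout.

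In counts, 1 of 8 rows passed for shRNA 162 minus control (HMGN5, higher), where 9.52% of all tested rows passed in limma, at an adjusted p (Benjamini-Hochberg) under 0.05. For shRNA 159 minus control 1 of 8 passed (HMGN3, higher), where 2.53% of all rows did. Between the hairpins 2 of 8 passed, HMGN3 higher and HMGN5 lower with shRNA 159, where 8.65% of all rows did. For the mean of both hairpins minus control, HMGN5 passed with a difference of 0.81 (SE 0.07), where 4.62% of all rows passed. That mean comes from 1.63 and -0.01, and the 4 TIP-1 shRNA clones overlapped the control clones. With the 4 clones as 1 group, or with the hairpin as a random block, HMGN5 did not pass.

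The median over the 8 rows was -0.04 with shRNA 162 and -0.04 with shRNA 159, beside 0.02 and -0.01 over all tested rows. The 2 hairpin comparisons share their control clones. The groups did not overlap in 3 of 8 rows for shRNA 162 against control (56.6% of all rows) and in 4 of 8 for shRNA 159 against control (42.4%). Between shRNA 159 and shRNA 162 they did not overlap in 7 of 8 rows (51.9%), the exception being the brightest HMGN2 row. Because the family was chosen on these contrasts, nothing is read from these shares.

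**Figure D3:**
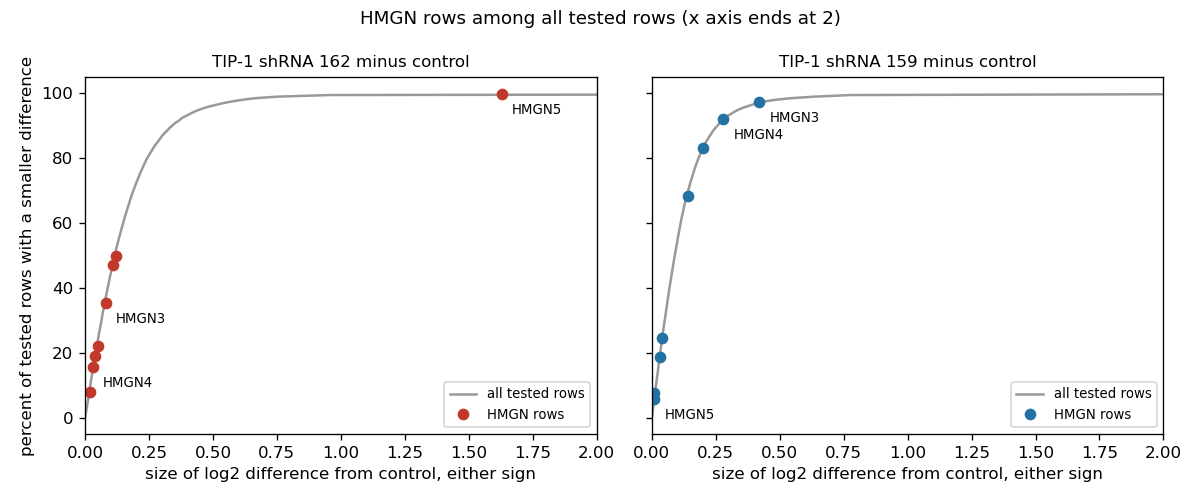
Size of the log2 difference from control (horizontal axis) against the percent of the 21214 tested rows with a smaller one (vertical axis), for shRNA 162 on the left and shRNA 159 on the right. The grey line is all rows and the points are HMGN rows. HMGN5 is far out on the left panel, where 0.0896% of rows changed at least as much, and HMGN3 on the right, where 2.76% did.

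The genes on either side of each member were read to see whether a member differed along with its stretch of chromosome. Of all tested rows, 9.52% passed with shRNA 162, 2.53% with shRNA 159 and 8.65% between the hairpins. With 10 genes per member, nothing is read from counts near these shares. Around HMGN5, 0 of the 10 nearest genes with a row of their own passed in any of the 4 comparisons in limma. Apart from SH3BGRL and BRWD3 (304 kb away), these genes lie 668 to 3120 kb from HMGN5. In all 6 arrays GPR174, ITM2A, TENT5D and CYLC1 had signals under that array's lower quartile. Signals this low were not shown to exceed background, so the missing calls of these genes say little. The divergent neighbour SH3BGRL read 11.75 and 11.92 with shRNA 162, 11.90 and 11.83 with shRNA 159, and 12.06 and 11.76 in control clones (log2). These groups overlapped, and the difference for shRNA 162 minus control was -0.08 (SE 0.11, limma adjusted p = 0.74). On the other side of HMGN5, BRWD3, a bromodomain protein gene, differed by 0.34 with shRNA 162 (SE 0.10, limma adjusted p = 0.069). The 10 differences around HMGN5 with shRNA 162 ran from -0.19 to 0.34.

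Around HMGN3, at chr6:79201245-79234682 on the minus strand, 0 of 10 neighbours, up to 3280 kb away, passed in any comparison. Their differences for shRNA 159 minus control ran from -0.30 to 0.16. The nearest measured neighbours of HMGN3 are PHIP, a bromodomain protein gene, at 0.08 (SE 0.08), and the transcript LCAL1 at -0.08. Around HMGN4, at chr6:26538366-26546933 on the plus strand among butyrophilin and histone genes, 0 of 10 passed with shRNA 159. With shRNA 162 the histone H2B gene H2BC12 fell by 0.71 (SE 0.13, limma adjusted p = 0.015), a call that was lost without control replicate 1 or without either shRNA 162 clone (adjusted p up to 0.083). Beside HMGN1, at chr21:39342315-39349088 on the minus strand, GET1, part of the receptor that inserts tail-anchored proteins into membranes, rose by 0.47 with shRNA 162 (SE 0.07, limma adjusted p = 0.0075) and was the 1 of 10 that passed there. That call was lost without either control clone or either shRNA 162 clone, although the difference stayed between 0.46 and 0.48. GET1 also passed for the mean of both hairpins (0.31, SE 0.06, limma adjusted p = 0.033). Between the hairpins it differed by -0.31 (shRNA 159 minus shRNA 162, SE 0.07, limma adjusted p = 0.038). The call between the hairpins was lost in each fit without 1 array (-0.35 to -0.27). Both further GET1 calls were lost with all 33297 rows tested. Beside HMGN2, at chr1:26472440-26476642 on the plus strand, 0 of 10 passed against control, and PIGV, an enzyme of membrane anchor synthesis, was lower with shRNA 159 than with shRNA 162 by 0.29 (a change of -0.29, SE 0.07, limma adjusted p = 0.048). That PIGV call was lost in each fit without 1 array (adjusted p 0.085 to 0.25) and with the replicate block.

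**Figure D4:**
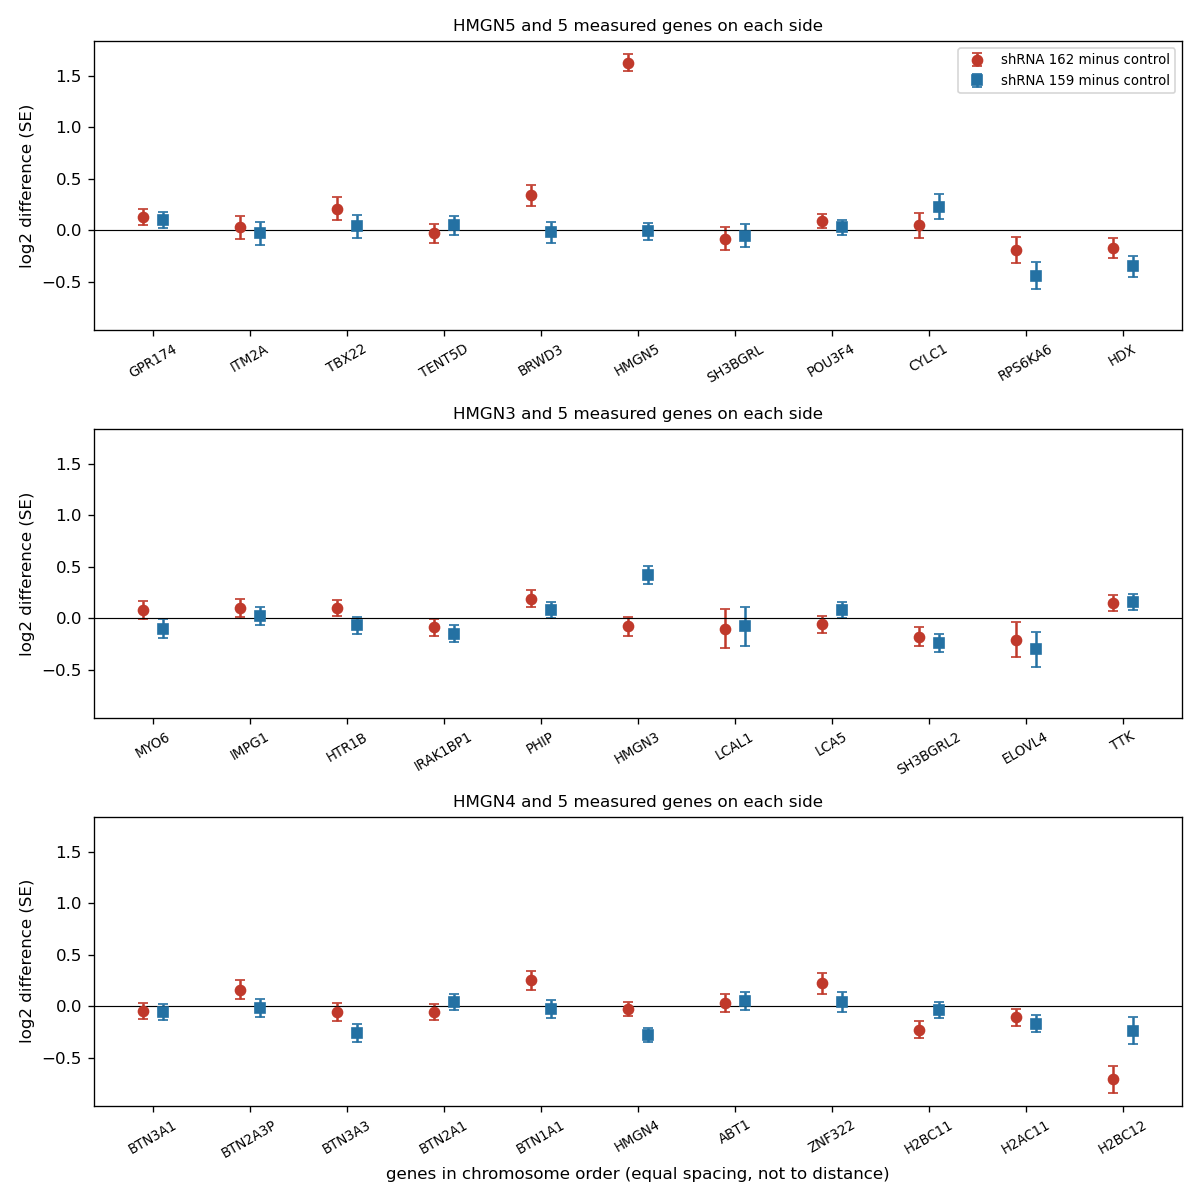
Log2 differences (vertical axis, bars are SE) of HMGN5, HMGN3 and HMGN4 and of the 5 measured genes on each side, in chromosome order with equal spacing. Circles are shRNA 162 minus control and squares shRNA 159 minus control. HMGN5 stands at 1.63 with shRNA 162 between SH3BGRL at -0.08 and BRWD3 at 0.34.

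HMGN proteins act beside other architectural proteins of chromatin. Counts in the lists below stand beside 9.52% of all tested rows passing with shRNA 162 and 2.53% with shRNA 159. For the mean of both hairpins the share was 4.62%, and between the hairpins 8.65%. The lists are short, and nothing is read from their counts. Among other HMG proteins, 0 of 4 passed in any of the 4 comparisons (limma), with HMGA1, a protein that binds the minor groove of DNA, at -0.23 with shRNA 162 and 0.05 with shRNA 159. Of the linker histones, with which HMGN proteins compete, 0 of 9 passed in any comparison, and their differences from control lay between -0.16 and 0.20 with shRNA 162 and between -0.12 and 0.07 with shRNA 159. Linker histone genes are close relatives, so the reading of a single row is uncertain.

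Of 25 histone chaperones, ANP32E, which removes the variant histone H2A.Z from nucleosomes, rose by 0.41 with shRNA 162 (SE 0.08, limma adjusted p = 0.018). It read 9.64 and 9.56 with shRNA 162, 9.20 and 9.07 with shRNA 159, and 9.18 and 9.19 in control clones (log2). No other chaperone passed against control, and 0 of 25 passed with shRNA 159. Between the hairpins ANP32E was lower with shRNA 159 than with shRNA 162 (a change of -0.46, SE 0.08, limma adjusted p = 0.013), a call lost without either shRNA 162 clone (adjusted p up to 0.094) and with all rows tested. NAP1L4, a nucleosome assembly protein, was 0.32 higher with shRNA 159 than with shRNA 162 (SE 0.08, limma adjusted p = 0.040). Without 1 array NAP1L4 did not pass in any of 6 fits (adjusted p 0.073 to 0.24). The median difference of the chaperones was 0.11 with shRNA 162 and 0.04 with shRNA 159.

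Of 8 enzymes listed as phosphorylating or acetylating HMGN proteins, 0 passed in any comparison in limma. KAT2A came nearest, at 0.29 with shRNA 162 (SE 0.08, limma adjusted p = 0.05 after rounding). Between the hairpins KAT2A differed by -0.28 (shRNA 159 minus shRNA 162, SE 0.08, limma adjusted p = 0.058). EP300, an acetyltransferase, was at 0.22 with shRNA 162 and 0.21 with shRNA 159, and the kinase RPS6KA5 was at 0.04 with shRNA 162. Of 9 proteins listed as acting with HMGN proteins, HSF1, the activator of heat shock genes, rose by 0.34 with shRNA 162 (SE 0.08, limma adjusted p = 0.043). The thyroid hormone receptor gene THRA fell by 0.32 there (SE 0.08, limma adjusted p = 0.047). Between the hairpins HSF1 differed by -0.41 (shRNA 159 minus shRNA 162, SE 0.08, limma adjusted p = 0.022) and THRA by 0.36 (SE 0.08, limma adjusted p = 0.034). HSF1 did not pass there without any 1 of the 4 hairpin clones (adjusted p up to 0.13), and THRA in none of the 6 fits without 1 array (adjusted p 0.06 to 0.21). TMPO, which encodes the HMGN5 partner LAP2-alpha, was at 0.13 with shRNA 162 (SE 0.08) and did not pass, and 0 of 9 passed with shRNA 159.

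Of 9 genes listed as responding, mainly in mouse work, to loss of an HMGN protein, JUNB, a subunit of the AP-1 transcription factor, rose by 0.41 with shRNA 162 (SE 0.08, limma adjusted p = 0.016). It read 9.59 and 9.5 with shRNA 162, 9.09 and 9.15 with shRNA 159, and 9.10 and 9.17 in control clones (log2). JUNB differed by -0.43 for shRNA 159 minus shRNA 162 (SE 0.08, limma adjusted p = 0.014), a call lost without either shRNA 162 clone or shRNA 159 replicate 1 (adjusted p up to 0.11). SLC6A9, a glycine transporter linked to HMGN3, differed by -0.32 for shRNA 159 minus shRNA 162 (SE 0.08, limma adjusted p = 0.044) and did not pass against control. SLC6A9 did not pass in any of the 6 fits without 1 array (adjusted p 0.051 to 0.2). The other 8 of these genes did not pass for shRNA 162 minus control, and 0 of 9 passed for shRNA 159 minus control. The shRNA 162 calls of ANP32E, HSF1, THRA and JUNB were each lost with all rows tested, and without either control clone or either shRNA 162 clone. In the fits without 1 array the differences ran from 0.37 to 0.46, 0.25 to 0.42, -0.4 to -0.24 and 0.37 to 0.45 in that order. HSF1 also lost its call after quantile normalization, and THRA with the replicate block.

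The rows most like HMGN5 over the 6 arrays were found by the root mean square difference between profiles, each taken relative to its own control mean, among 17789 rows of protein-coding genes. They were IFIT1 (0.142) and IFIT2 (0.158), both induced by interferon, the growth factor gene NRG1 (0.170) and LRRN1 (0.189), which encodes a leucine-rich repeat membrane protein. IFIT1 read 8.85 and 8.74 with shRNA 162, 7.43 and 7.40 with shRNA 159, and 7.28 and 7.38 in control clones (log2). NRG1 read 10.25 and 10.05 with shRNA 162, 8.50 and 8.40 with shRNA 159, and 8.27 and 8.63 in control clones. These rows were selected for their likeness in the same arrays, so the likeness is a description. HMGN3 was not used for such a search because its group means spanned 0.498, under the limit of 0.5.

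Among the markers of other cell types, the epithelial adhesion gene EPCAM was, like HMGN3, higher with shRNA 159. With shRNA 162 minus control EPCAM was at 0.16 (SE 0.08) and HMGN3 at -0.08 (SE 0.09), and neither passed. EPCAM rose by 0.94 with shRNA 159 (SE 0.08, limma adjusted p = 0.00086), the 1 of 8 luminal and epithelial markers that passed there. The mean of the 8 epithelial markers ranged over 7.70 to 7.74 in shRNA 162 clones, 7.84 to 7.88 in shRNA 159 clones and 7.72 to 7.82 in control clones (log2). Of these 8, ESR1, PGR and CDH1 lay below the median of every array. ERBB2, GATA3 and FOXA1 lay between the median and the upper quartile. KRT18 lay above the upper quartile, at 12.24 with shRNA 162 and 12.35 with shRNA 159 and in control clones. EPCAM lay above the median of its array only in the shRNA 159 clones. Of 5 fibroblast and endothelial markers 0 passed against control, and the receptor gene PDGFRB was 0.41 higher with shRNA 159 than with shRNA 162 (SE 0.08, limma adjusted p = 0.018). The PDGFRB call was lost in 4 of 11 other fits: with all rows tested, without either shRNA 162 clone and without shRNA 159 replicate 2 (adjusted p up to 0.13). The part of these markers in the HMGN3 difference was not tested.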

How the data were processed

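The log2 signals per probe set were deposited by the authors, who processed Affymetrix Human Gene 1.0 ST arrays with the Affymetrix Exon Array Computational Tool, per the series' design text. The sources used here do not say how that tool corrected background, normalized or summarized. The log2 scale was read from the range of the values, 2.29 to 14.65. No further scaling was applied. Gene symbols came from the platform's annotation, names and positions from RefSeq (GRCh38.p14).

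One model with 3 groups was fitted to each of the 21214 rows with a gene symbol by the lmFit and eBayes functions of limma (version 3.58.1, R 4.3.3). It had 5.31 prior and 3 residual degrees of freedom, two-sided tests and Benjamini-Hochberg adjustment over those rows. The alternative fit with all rows tested took in all 33297 rows, including 12083 without a gene symbol. The fit was run on simulated data with independent noise and the same change planted in both hairpins. Recovery of a change in 1 hairpin alone was not tested. The number of arrays limits the precision. Genes with several rows entered lists by their brightest row. The rule named all HMGN rows, passing neighbours among 5 measured genes on each side, up to 4 passing members of each list, and the 4 profiles nearest to any member whose group means spanned 0.5 or more. Other genes, named to illustrate a count, were chosen after their values were seen. Members and lists were chosen with earlier results of these data known. The main fit did not pair clones by replicate number. Deviations of replicate 1 from its group mean correlated at -0.03 (shRNA 162 with shRNA 159), -0.05 (shRNA 162 with control) and 0.26 (shRNA 159 with control). Figures used matplotlib 3.10.9.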

Additional observations from a re-analysis of the deposited data

Results flagged for a closer look

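For HMGN5 the clones of the 2 hairpins stood at different distances from the same control clones, and hairpin and clone cannot be told apart. The difference for shRNA 159 minus shRNA 162 was -1.64 on the log2 scale. It passed in the main limma fit, over the 21214 rows with a gene symbol, and 2 of 2 shRNA 162 clones lay above the control mean. For HMGN3 the same difference was 0.50 and passed in the main fit as well, but not with all 33297 rows tested. Both shRNA 159 clones lay above the control mean and both shRNA 162 clones below it. Both genes were chosen with these differences in view, so the fit's call is no independent test of either.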

How the results depend on the processing

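Across the alternatives, 372 of 388 HMGN differences moved by less than 1 SD between clones, 16 moved by more, and 0 that passed changed sign. Many of these could not move. Testing another set of rows, a variance trend or a replicate block leaves a difference as it is. So does dropping an array outside the comparison. The count is therefore no measure of stability. HMGN5 kept its call for shRNA 162 minus control in all 11 fits that tested it (1.58 to 1.68); its row is not among the brighter rows. With the brighter rows alone, the HMGN rows that passed numbered 0, 2 and 0 (shRNA 162, shRNA 159 and the mean of both, each minus control). With all 33297 rows tested, shRNA 159 minus control gave 0 and shRNA 159 minus shRNA 162 gave 1. For shRNA 159 minus control quantile normalization gave 0, the variance trend 2, the 4 arrays compared alone 0, and each fit without 1 array 0 (0 to 0); the cause was not tested. For shRNA 159 minus shRNA 162 the fits without 1 array gave 1 to 2 and the variance trend 3, with HMGN4 added. For the mean, the 4 clones as 1 group and the random block gave 0 each, since both take in the spread between hairpins.

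In the main fit, over the 21214 rows with a gene symbol, the counts that passed were 2019, 537, 980 and 1836 (shRNA 162, shRNA 159 and the mean, each minus control, then shRNA 159 minus shRNA 162). The brighter rows alone gave 3090, 946 and 1992 for the comparisons with control. All 33297 rows gave 691, 111, 226 and 593, and the variance trend 3482, 1137, 2265 and 3022. The fits without 1 array gave 526 to 2416, 142 to 512, 187 to 1138 and 597 to 1352. For the mean, the 4 clones as 1 group gave 71 and the random block 27. With the replicate block the HMGN rows that passed for shRNA 159 minus control numbered 0 (HMGN3 adjusted p = 0.056 in limma), and 584 of the 21214 rows passed. The block changed no other HMGN call, but THRA (shRNA 162 minus control) and PIGV lost theirs. The labels give no link between clones of different groups beyond this number. With all 33297 rows tested, each call named above for a neighbour or a gene of the other lists was lost, except GET1 (shRNA 162 minus control) and EPCAM.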
